A study of Saccharomyces cerevisiae with 21 samples.

Results

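Transcripts of hyperfilamentous dig1 biofilms were set against the mean of 5 hypofilamentous mutants of the budding yeast Saccharomyces cerevisiae, ste12, spt8, rim101-531, ras2 and rtg3. The comparison used 18 of the 21 RNA-seq libraries of the series, 3 from dig1 and 3 from each of the 5 other mutants. The mean of the 5 was taken over their group means with equal weights, so that no mutant counted for more than another, and the 3 wild-type libraries were not part of it. All strains were of the Sigma1278B background, a laboratory background that still forms filaments and mats. All were grown as biofilms for 24 h on 2% agar with galactose after 16 h in liquid glucose medium, and the labels give each as a mutant in 1 gene with no further detail of the allele, apart from the allele name rim101-531. The filamentous phenotypes are those of the labels. Only 1 strain was hyperfilamentous, so what belongs to hyperfilamentous growth and what belongs to the dig1 strain cannot be told apart. Whether the 3 libraries of a group are from different cultures is not stated. The p-values measure the spread between these libraries, which may be technical.

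Filamentous growth of yeast is driven in part by a mitogen-activated protein kinase (MAPK) cascade that ends at the transcription factors Ste12 and Tec1, and Dig1 is a protein that holds Ste12 inactive until the cascade releases it. The same Ste12 serves the pheromone response of mating cells. The other mutants touch filamentation from other sides: Spt8 belongs to the coactivator complex SAGA, and Rim101 is a factor that cells need to adapt to alkaline medium. Ras2 is a GTPase that feeds both the MAPK cascade and the cyclic AMP pathway, while Rtg3 carries the signal of failing mitochondria to nuclear genes. The main surface output of these pathways is Flo11, a flocculin that lets cells stick to each other and to agar.

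Counts on genes and other features came to 3139991 to 3284302 per dig1 library and 2388813 to 3987529 per library of the 5 other mutants. The targeted genes were examined first. DIG1 had 0, 1 and 0 counts in dig1 and 2673 counts over the 15 other libraries, a ratio per count sequenced of 567.4 of the others to dig1 (exact 95% interval 101.8 to 22420). SPT8, RAS2 and RTG3 had 0 counts in their own mutants. With the own mutant set to a floor of 3 counts over its 3 libraries, they were at least 60.95-fold, 445.6-fold and 135.7-fold lower there than in the other 15. STE12 kept 68, 67 and 52 counts in ste12 and was 2.16-fold lower there (95% interval 1.865 to 2.523), so counts check that label only in part. RIM101 was 1.158-fold lower in rim101-531 (95% interval 1.093 to 1.228), so counts do not check that label. Intervals and floors cover counting error only.

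A chromosome stood apart in dig1 before any pathway was considered. In a library's median over the genes of a chromosome, taken as log2 CPM (counts scaled for library size) minus the mean of the 15 hypofilamentous libraries, chromosome IX was at 0.81, 0.82 and 0.84 in dig1, against -0.07 to 0.04 in the 15 hypofilamentous libraries. The 3 wild-type libraries, used only here, were at 0.04, 0.11 and 0.07. Chromosome III was also higher, by less, at 0.26, 0.18 and 0.23 in dig1, against -0.06 to 0.13 in the 15. The median log2 fold change of dig1 against the mean of the 5 was 0.84 over the 207 tested genes of chromosome IX and 0.26 over the 154 of chromosome III, and it lay between -0.03 and 0.02 on each of the other 14 chromosomes. The rise ran along the whole of chromosome IX, with medians of 0.79, 0.86, 0.80, 0.91 and 0.82 in 5 successive equal blocks of its genes, and it was alike against each mutant, from 0.82 against ras2 to 0.85 against rim101-531. Of the 207 genes 189 rose (91.3%) and 0 fell, with 65 rising by at least 2-fold (31.4%), and 204 had a positive change. On chromosome III 47 of 154 rose (30.5%) and 0 fell, and for 13 (8.44%) the dig1 libraries lay above all 15 others. DNA copy number was not measured, and its part in these values was not tested. For a gene on chromosome IX, a change in dig1 and a change of its whole chromosome therefore cannot be told apart by its fold change alone, and counts are given below with and without both chromosomes.

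**Figure D1:**
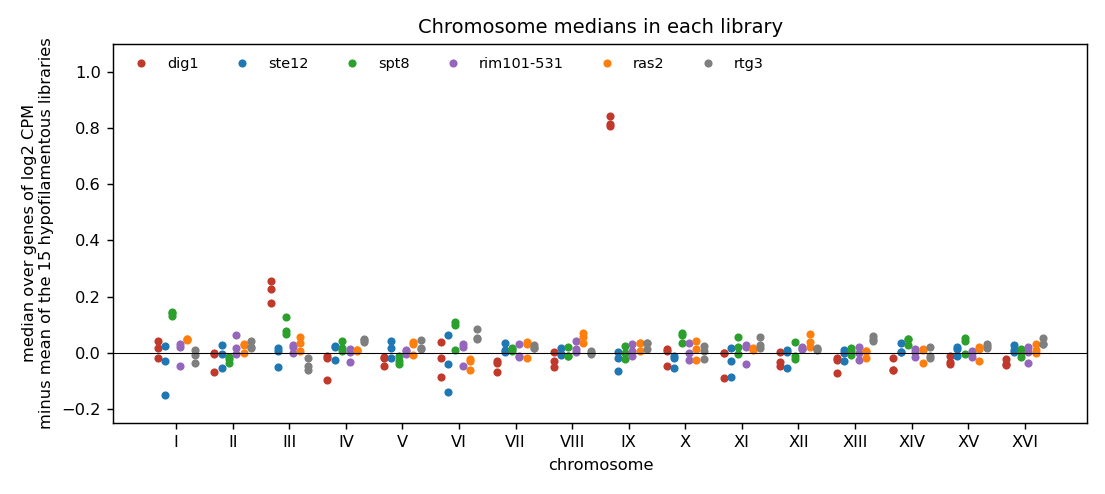
Median over the genes of each chromosome of log2 CPM minus the mean of the 15 hypofilamentous libraries (y axis), for each chromosome (x axis). Each point is 1 library, coloured by strain, with dig1 leftmost; the 3 dig1 points stand at 0.81 to 0.84 on chromosome IX and at 0.18 to 0.26 on chromosome III.

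Over all 5773 tested genes, 1184 changed in dig1 against the mean of the 5 (20.5%), by edgeR's quasi-likelihood test with Benjamini-Hochberg adjustment at 0.05. Of these 741 rose (12.8%) and 443 fell (7.67%). Fewer genes fell without dig1 replicate 3 (229) or without dig1 replicate 2 (273). By at least 2-fold, 165 rose (2.86%) and 12 fell (0.208%). Among the 5412 tested genes off chromosomes IX and III, in the same fit, 505 rose (9.33%) and 443 fell (8.19%), and 95 rose (1.76%) and 12 fell (0.222%) by at least 2-fold. A new fit that left out the genes of both chromosomes called 524 higher and 335 lower, so the balance of rises and falls there depended on the fit. The 3 dig1 libraries lay above all 15 others for 265 genes (4.59%) and below all 15 for 47 (0.814%), in all 312 genes (5.4%). Of these, 124 (2.29%) above and 47 (0.868%) below lay off both chromosomes. The largest rise of all was a log2 fold change of 6.66 ± 0.51 for YOR387C (adjusted p = 2.97e-08). Here and below, ± is the standard error of the fit. YOR387C has no standard name and is a near-copy of VEL1, so that reads alike in both may be lost from the counts.

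The mean of the 5 covered unlike mutants, since 3328 of the 5773 genes (57.6%) also differed among the 5. A stricter question is therefore whether dig1 differed from each of the 5 in the same direction. That held for 155 genes (2.68%), 150 of them higher (2.6%) and 5 lower (0.0866%), taking the largest of the 5 p-values for each gene and adjusting it over all genes. The 5 lower were DIG1, TIR2, DSE4, MRH1 and ECM3. Of the 150 higher, 87 lay on chromosome IX (42% of its tested genes) and 5 on chromosome III (3.25%), which left 58 of 5412 genes (1.07%) on the other chromosomes, beside all 5 of the lower genes (0.0924%). Against single mutants, 1949 genes changed in dig1 against rtg3 (33.8%), 1528 against spt8 (26.5%), 1265 against ras2 (21.9%), 1231 against ste12 (21.3%) and 607 against rim101-531 (10.5%). All 5 contrasts share the same dig1 libraries. Of the 741 rises, 590 had a dig1 mean above all 5 group means and 151 did not. Of the 443 falls, 274 had a dig1 mean below all 5 and 169 did not.

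**Figure D2:**
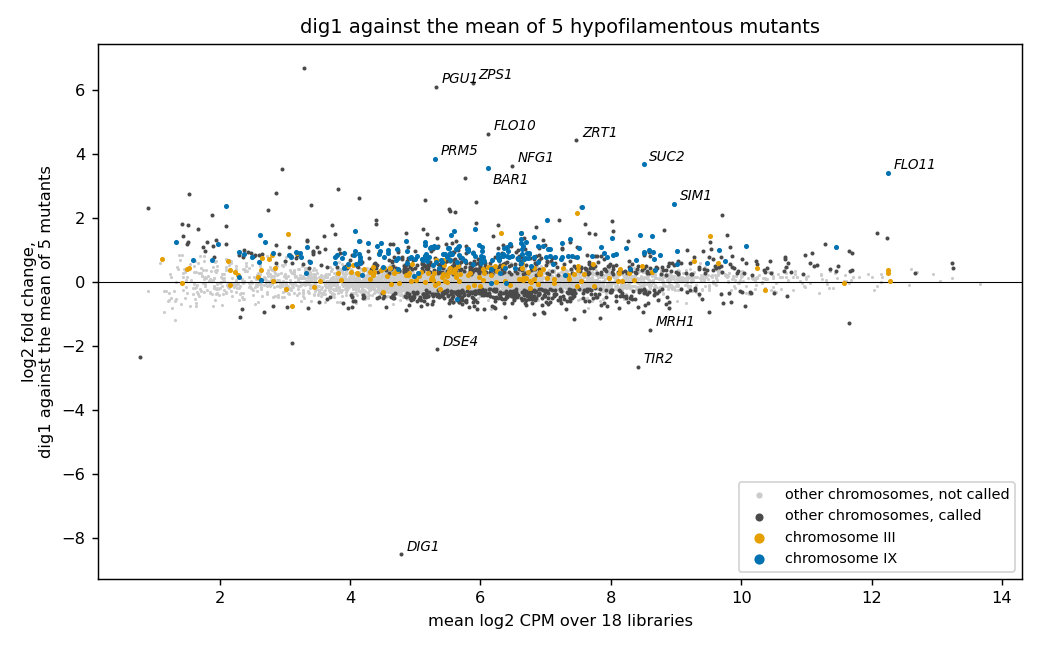
Log2 fold change of dig1 against the mean of the 5 mutants (y axis) against the mean log2 CPM over 18 libraries (x axis), 1 point per tested gene. Genes of chromosome IX are blue, of chromosome III orange, other called genes dark and other genes pale; the cloud of chromosome IX lies around its median of 0.84, and FLO11, SUC2, SIM1, PRM5 and BAR1 stand above it.

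Genes that the filamentation MAPK pathway is known to drive were higher in dig1. Of the 9 tested members of that list, chosen from textbook targets, 9 rose and 0 fell, and 6 differed from each of the 5 mutants. Members of this and the other lists were chosen with earlier results of these data known, so such counts are not an independent check. For this and every later list, the share over all tested genes was 12.8% rising and 7.67% falling. The median log2 fold change of the list was 1.27, and 1.23 over the 8 members off chromosomes IX and III, against 0.01 over all tested genes. PGU1 (YJR153W, chromosome X, 722815 to 723900, R64), which encodes a secreted pectin-degrading enzyme and is a common reporter of the pathway, had 1386, 1272 and 1301 CPM in dig1, against 6.44, 9.46 and 6.01 in ste12, 33.8, 27.5 and 21.4 in spt8, 62.4, 46.1 and 45.4 in rim101-531, 21.2, 17.6 and 14.4 in ras2, and 15.1, 13.2 and 15.1 in rtg3. The highest of the 15 other libraries, of rim101-531, stood at 62.4 CPM, and the lowest group was ste12. The change was 68.3-fold (log2 fold change 6.09 ± 0.10, adjusted p = 4.16e-17). NFG1 (YLR042C, chromosome XII, 229966 to 230451), a negative regulator of filamentous growth, had 679, 709 and 674 CPM in dig1, against 0.919, 1.29 and 1.85 in ste12, 158, 136 and 148 in spt8, 251, 139.9 and 211 in rim101-531, 108, 177 and 148 in ras2, and 82.1, 99.5 and 92.9 in rtg3. It was near 0 in ste12 and at intermediate levels in the 4 others, with no overlap with dig1 (log2 fold change 3.62 ± 0.13, adjusted p = 1.46e-12). SVS1, a cell wall protein, had 825, 732 and 752 CPM in dig1, against 68.9 to 337 CPM (median 224) in the 15 hypofilamentous libraries (log2 fold change 1.89 ± 0.09, adjusted p = 3.37e-11). In bulk libraries, here and below, fewer cells of a type and less RNA per cell cannot be told apart.

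Of the 17 tested components of the cascade itself 7 rose and 2 fell, with a median of 0.23. Some lists share members, so their counts are not separate from each other. MSB2, KSS1 and TEC1, which rose, are also among the targets above, and TEC1 is again among the transcription factors below. TEC1 (YBR083W, chromosome II, 409169 to 410629), the partner of Ste12 at filamentation genes, had 103, 107 and 96.4 CPM in dig1, against 27.1, 30.1 and 25.4 in ste12, 39.0, 35.7 and 44.6 in spt8, 69.7, 53.9 and 67.3 in rim101-531, 42.7, 30.7 and 35.2 in ras2, and 56.8, 49.0 and 52.6 in rtg3 (log2 fold change 1.27 ± 0.09, adjusted p = 1.32e-08). Its closest group was rim101-531, at a log2 fold change of 0.68, and dig1 was above all 15 libraries. KSS1, the MAPK of the filamentation branch, had 81.8, 91.5 and 88.9 CPM in dig1, against 18.8 to 56.4 CPM (median 41.9) in the 15 hypofilamentous libraries (log2 fold change 1.19 ± 0.08, adjusted p = 9.14e-09). Both TEC1 and KSS1 passed against each of the 5 mutants (adjusted p = 0.00345 and 0.00021). MSB2, the mucin-type sensor at the top of the cascade, had 977, 991 and 953 CPM in dig1, against 248, 321 and 227 in ste12, 602, 572 and 572 in spt8, 917, 859.7 and 873 in rim101-531, 710.1, 849 and 773 in ras2, and 529, 608 and 565 in rtg3 (log2 fold change 0.77 ± 0.08, adjusted p = 2.2e-06). The dig1 libraries were highest, but the change against rim101-531 was only 0.14 and did not pass (adjusted p = 0.536). The falls were of STE11 (-0.39, adjusted p = 0.00658) and STE7 (-0.37, adjusted p = 0.0311), the kinases above Kss1, while STE20, the kinase above them, was at 0.09 and did not pass. RGA1, a GTPase-activating protein of Cdc42, rose (log2 fold change 0.67 ± 0.08, adjusted p = 7.14e-06). CLN1, a G1 cyclin that promotes filamentation, had 190.3, 189.7 and 197 CPM in dig1, against 45.1 to 163 CPM (median 129) in the 15 hypofilamentous libraries (log2 fold change 0.82 ± 0.08, adjusted p = 4.45e-07). Against each of the 5 it did not pass (adjusted p = 0.0569).

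Of 11 transcription factors that act on filamentation or on FLO11, 7 rose and 1 fell, with a median of 0.50. NRG2, a repressor of FLO11 under glucose control, had 108, 131 and 113 CPM in dig1, against 42.2 to 86.9 CPM (median 68.0) in the 15 hypofilamentous libraries (log2 fold change 0.79 ± 0.10, adjusted p = 9.11e-06). MSS11, an activator of FLO11 with Flo8, rose by less (log2 fold change 0.72 ± 0.15, adjusted p = 0.00146), and MGA1, a heat-shock-factor-like protein, had a log2 fold change of 0.84 (adjusted p = 0.00491). PHD1, another activator of filamentation, rose against the mean (log2 fold change 0.50 ± 0.11, adjusted p = 0.00389) but was not above all 5 groups: it stood at 37.4 ± 3.63 CPM in dig1 and at 72.8 ± 7.08 CPM in rtg3 (SD, n = 3 each). The call for PHD1 was lost with spt8 left out of the mean. The member that fell was ASH1 (-0.34, adjusted p = 0.00686), a daughter-cell factor.

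**Figure D3:**
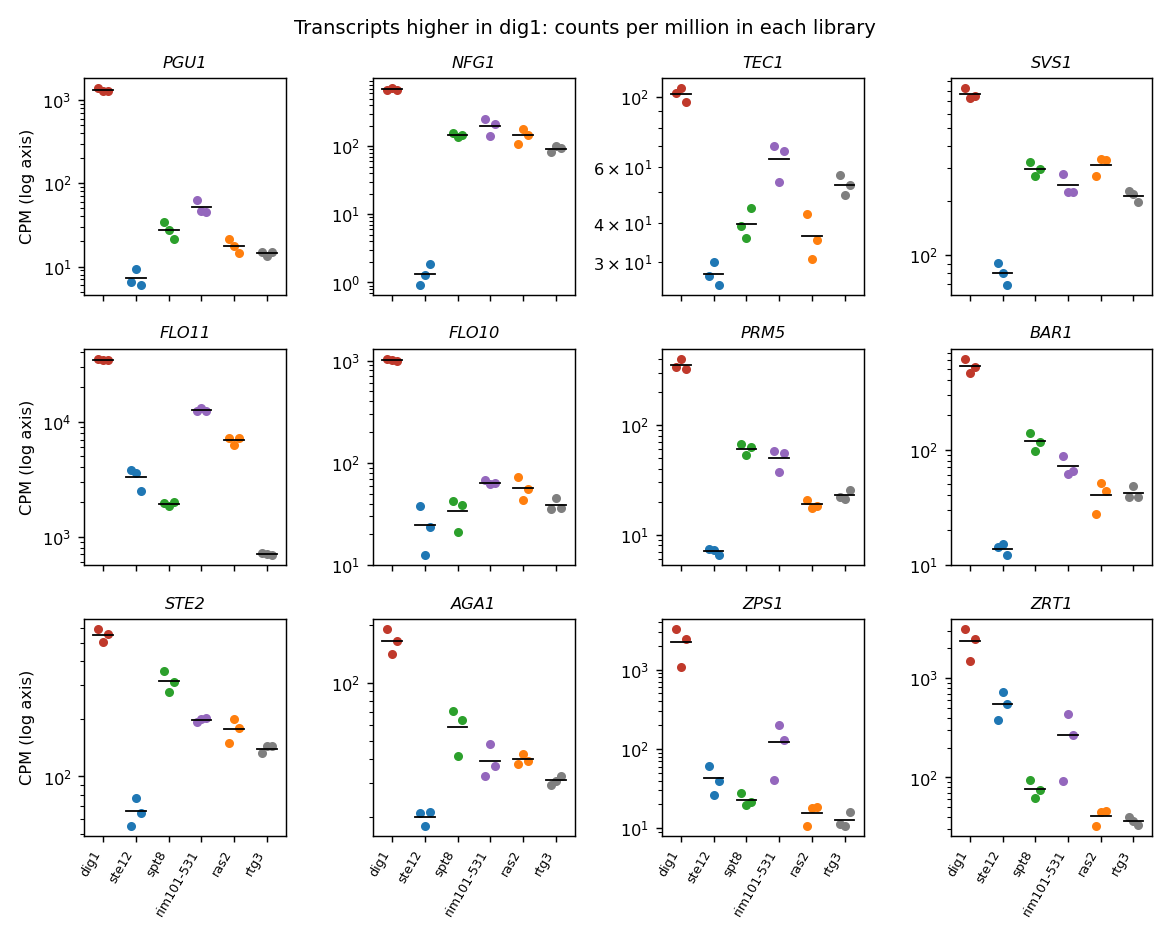
CPM on a log axis in each of the 18 libraries for 12 transcripts higher in dig1; points are libraries, bars are group means, and dig1 is leftmost in each panel. In every panel the 3 dig1 points lie above the 15 others, and the order of the 5 mutants differs from gene to gene.

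The flocculins and mating adhesins rose in 5 of 8 tested cases and fell in 0, with a median of 1.35. FLO11 (YIR019C, chromosome IX, 389572 to 393675) had 35294, 34507 and 34405 CPM in dig1, against 3802, 3609 and 2507 in ste12, 1960.00, 1839.9 and 1984 in spt8, 12319, 13214 and 12473 in rim101-531, 7155, 6266 and 7212 in ras2, and 715, 709 and 687 in rtg3. The dig1 libraries were above all 15 others, with rtg3 the lowest group and rim101-531 the nearest to dig1. The change was 10.5-fold (log2 fold change 3.40 ± 0.09, adjusted p = 1.49e-14), and FLO11 passed against each mutant (adjusted p = 7.22e-06), with log2 fold changes of 3.39 against ste12, 4.17 against spt8, 1.46 against rim101-531, 2.34 against ras2 and 5.62 against rtg3. FLO11 had a mean of 34735 CPM in dig1, against an arithmetic mean of 5097 CPM over the 5 group means. FLO11 lies on chromosome IX, whose median was 0.84. FLO10 (YKR102W, chromosome XI, 646356 to 649865), a second flocculin, had 1042, 1021 and 994 CPM in dig1, against 38.2, 12.5 and 23.6 in ste12, 42.5, 21.1 and 38.4 in spt8, 67.3, 61.8 and 63.1 in rim101-531, 72.5, 43.8 and 55.3 in ras2, and 35.6, 45.6 and 35.9 in rtg3. Its change of 24.7-fold (log2 fold change 4.63 ± 0.16, adjusted p = 1.07e-12) was larger than that of FLO11, and the highest other library, of ras2, stood at 72.5 CPM. The other flocculins did not pass, FLO1 at -0.13, FLO5 at 0.19 and FLO9 at 0.37 on the log2 scale. The FLO genes share repeated sequence and some of their reads may be lost from the counts. Alignments to more than 1 place made up 27.34% to 28.61% of the records in dig1 and 18.56% to 24.99% in the 15 others, and their part in these values was not tested.

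Mating transcripts were higher in dig1 as well. Of 22 tested pheromone response genes 16 rose and 0 fell, with a median of 0.54, but only 3 were higher than in each of the 5 mutants. Off chromosomes IX and III 11 of 17 rose, with a median of 0.59. Of 5 tested genes specific to the a mating type 4 rose, all 4 against each of the 5 mutants. STE2 (YFL026W, chromosome VI, 82580 to 83875), the receptor for alpha factor, had 589, 505 and 555 CPM in dig1, against 55.2, 76.97 and 64.7 in ste12, 355, 277 and 312 in spt8, 192, 200.3 and 202 in rim101-531, 149, 200.5 and 179 in ras2, and 132, 143 and 144 in rtg3. The dig1 libraries were highest, ste12 lowest, and spt8 closest to dig1, at a log2 fold change of 0.80 (log2 fold change 1.79 ± 0.09, adjusted p = 1e-10 against the mean). STE6, the exporter of a factor, had 141, 144 and 138 CPM in dig1, against 34.2 to 94.5 CPM (median 71.5) in the 15 hypofilamentous libraries (log2 fold change 1.06 ± 0.06, adjusted p = 3.97e-10). BAR1 (YIL015W, chromosome IX, 322342 to 324105), the protease that degrades alpha factor, had 619, 463 and 527 CPM in dig1, against 14.3, 15.1 and 12.02 in ste12, 141, 98.2 and 117 in spt8, 88.0, 61.8 and 64.9 in rim101-531, 27.4, 51.1 and 43.7 in ras2, and 38.8, 48.0 and 38.7 in rtg3. The dig1 libraries again did not overlap with the others (log2 fold change 3.55 ± 0.12, adjusted p = 1.16e-12). AGA2, the binding subunit of the a-agglutinin, had 38.3, 28.2 and 31.0 CPM in dig1, against 1.72 to 8.29 CPM (median 5.79) in the 15 hypofilamentous libraries (log2 fold change 2.77 ± 0.15, adjusted p = 2.82e-10). AGA1, its anchor in the wall, had 189, 141 and 164 CPM in dig1, against 18.1 to 71.5 CPM (median 36.9) in the 15 hypofilamentous libraries (log2 fold change 2.20 ± 0.12, adjusted p = 2.2e-10). PRM5 (YIL117C, chromosome IX, 140613 to 141569), a membrane protein induced by pheromone, had 337, 402 and 321 CPM in dig1, against 7.36, 7.31 and 6.47 in ste12, 66.4, 52.9 and 63.2 in spt8, 58.0, 37.2 and 56.0 in rim101-531, 20.9, 17.6 and 18.1 in ras2, and 22.0, 20.9 and 25.6 in rtg3. The dig1 libraries did not overlap with the others (log2 fold change 3.83 ± 0.10, adjusted p = 9.82e-15). FUS3, the MAPK of the mating branch, had 239, 276 and 235 CPM in dig1, against 73.1 to 166 CPM (median 112) in the 15 hypofilamentous libraries (log2 fold change 1.17 ± 0.07, adjusted p = 2.87e-09). SST2, which dampens the pheromone signal, had 38.3, 32.4 and 37.5 CPM in dig1, against 5.52 to 34.8 CPM (median 14.9) in the 15 hypofilamentous libraries (log2 fold change 1.27 ± 0.13, adjusted p = 1.13e-06), and its lowest dig1 library lay under the highest spt8 library. BAR1 and PRM5 lie on chromosome IX, above whose median of 0.84 both stood. The members that did not pass included ASG7, at 0.05 on the log2 scale, and PRM4 and PRM8, at -0.12 and -0.13. Of 3 tested alpha-specific genes 0 passed in edgeR or in DESeq2, and 1 was higher at an unadjusted p under 0.05. STE3, the receptor for a factor, had 28.8, 29.6 and 28.9 CPM in dig1, against 22.7 to 40.7 CPM (median 31.0) in the 15 hypofilamentous libraries. SAG1, the alpha-agglutinin, had 67.4, 48.4 and 58.2 CPM in dig1, against 33.8 to 67.3 CPM (median 45.0) in the 15 hypofilamentous libraries. The labels give no mating type. Among the a-specific genes MFA2 had no count in any of the 18 libraries and MFA1 stood at 0 to 2.41 CPM, and among the alpha-specific genes MF(ALPHA)1 stood at 0 to 3.70 CPM. Both STE2 and STE3 were detected in every library, so these counts did not check the mating type.

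The pheromone response element TGAAACA, to which Ste12 binds, was looked for on both strands in a window from 250 bases before to 50 bases after the start of each RefSeq gene (R64, of strain S288C, not Sigma1278B). It occurred in 450 of 5987 windows (7.52%), and in 3 of the 14 largest named rises and 2 of the 14 largest named falls, DSE4 and STE13. The element CATTCC, bound by Tec1, occurred in 651 windows (10.9%) and in 0 of the 14 rises and 0 of the 14 falls. Only these exact letters were looked for, so other forms that Tec1 may bind were not counted. A match is a description of the letters, not a site of binding, and the FLO11 promoter is longer than this window. The 3 windows of rises that hold TGAAACA, all in mating genes, are printed below, 5′ to 3′ on the strand of the gene, with the match in capitals. In AGA2 it lies on the opposite strand and so reads TGTTTCA. The windows are chrIX:141520-141819 on the minus strand for PRM5, chrIX:322092-322391 on the plus strand for BAR1 and chrVII:436784-437083 on the minus strand for AGA2.
PRM5: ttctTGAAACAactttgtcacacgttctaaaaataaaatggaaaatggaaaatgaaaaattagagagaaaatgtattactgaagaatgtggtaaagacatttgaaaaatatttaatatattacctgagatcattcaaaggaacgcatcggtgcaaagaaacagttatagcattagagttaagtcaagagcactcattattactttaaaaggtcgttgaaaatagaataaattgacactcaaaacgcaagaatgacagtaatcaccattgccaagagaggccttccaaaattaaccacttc
BAR1: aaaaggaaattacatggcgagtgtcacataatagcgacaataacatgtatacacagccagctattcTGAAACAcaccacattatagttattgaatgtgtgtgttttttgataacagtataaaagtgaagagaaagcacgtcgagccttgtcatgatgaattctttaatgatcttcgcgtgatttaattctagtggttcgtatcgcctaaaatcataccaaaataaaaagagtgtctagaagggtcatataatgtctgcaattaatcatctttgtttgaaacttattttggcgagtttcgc
AGA2: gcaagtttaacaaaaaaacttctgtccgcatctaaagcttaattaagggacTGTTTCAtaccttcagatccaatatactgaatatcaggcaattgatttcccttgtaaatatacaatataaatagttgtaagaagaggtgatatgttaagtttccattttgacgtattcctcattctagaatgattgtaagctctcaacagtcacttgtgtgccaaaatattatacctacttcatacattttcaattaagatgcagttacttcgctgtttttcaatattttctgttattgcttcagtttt

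Most structural and remodelling genes of the cell wall rose in dig1 against the mean of the 5, but few differed from each mutant. Of 18 structural wall proteins 11 rose and 2 fell (median 0.56), and of 18 glucan and chitin remodelling enzymes 14 rose and 1 fell (median 0.43), none of them on chromosomes IX or III. Against each mutant 4 structural proteins and 1 enzyme passed as higher, and 18 and 17 differed among the 5. The structural median was 0.62 against ste12, 0.69 against spt8, 0.17 against rim101-531, 0.05 against ras2 and 0.89 against rtg3. For the enzymes it ran from 0.23 against rim101-531 to 0.69 against rtg3. CWP2 (YKL096W-A, chromosome XI, 259253 to 259531), a major mannoprotein, had 10904, 11084 and 9859 CPM in dig1, against 2720.2, 2301 and 2427 in ste12, 3029, 3213 and 3030.5 in spt8, 6099, 5749 and 6273 in rim101-531, 7937, 6848 and 7221 in ras2, and 3266, 3614 and 3228 in rtg3. Levels in dig1 were highest, with ras2 and rim101-531 next (log2 fold change 1.38 ± 0.08, adjusted p = 4.34e-10). PRY2, a secreted sterol-binding protein, had 1775, 2476 and 1891 CPM in dig1, against 291 to 1217 CPM (median 766) in the 15 hypofilamentous libraries (log2 fold change 1.45 ± 0.10, adjusted p = 1.5e-08). SRL1, a mannoprotein, had 1218, 1192 and 1149 CPM in dig1, against 458 to 883 CPM (median 614) in the 15 hypofilamentous libraries (log2 fold change 0.96 ± 0.08, adjusted p = 1.59e-07). CWP1, another mannoprotein, passed (log2 fold change 1.17 ± 0.13, adjusted p = 3.93e-06) but was not above all groups: it stood at 157 ± 10.2 CPM in dig1, 744 ± 164 in ras2 and 6.62 ± 0.401 in rtg3 (SD, n = 3 each). Its sign turned with an arithmetic mean of the 5 group means, and its call was lost without rtg3. GAS5, a glucan-elongating enzyme, had 1629, 1857 and 1683 CPM in dig1, against 363 to 1317 CPM (median 835) in the 15 hypofilamentous libraries (log2 fold change 1.096 ± 0.08, adjusted p = 7.53e-09). GSC2, a glucan synthase subunit, had 2435, 2299 and 2428 CPM in dig1, against 1177 to 2102 CPM (median 1573) in the 15 hypofilamentous libraries (log2 fold change 0.60 ± 0.08, adjusted p = 1.24e-05). SCW10, a soluble glucanase-like protein, rose (log2 fold change 0.96 ± 0.07, adjusted p = 3.11e-08) with overlap in rtg3. GAS3 was the enzyme that fell (log2 fold change -0.58 ± 0.08, adjusted p = 3.99e-05). SIM1 (YIL123W, chromosome IX, 128151 to 129581), a protein of the SUN family of wall enzymes, had 2083, 2045 and 2050.4 CPM in dig1, against 333, 317 and 291 in ste12, 447, 427 and 408 in spt8, 499.9, 493 and 489 in rim101-531, 289, 319 and 309 in ras2, and 372, 435 and 366 in rtg3. It was 5.42-fold higher (log2 fold change 2.44 ± 0.06, adjusted p = 9.82e-15), with log2 fold changes between 2.06 against rim101-531 and 2.75 against ras2, and it lies on chromosome IX. FKS1, the other glucan synthase subunit, and the chitin synthases CHS1, CHS2 and CHS3 had log2 fold changes of 0.55, 0.46, 0.52 and 0.39 and passed (adjusted p = 0.00106, 8.63e-05, 0.00471 and 0.00567).

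DSE4 (YNR067C, chromosome XIV, 755746 to 759099), a daughter-specific glucanase that degrades the septum, had 13.4, 11.8 and 10.3 CPM in dig1, against 86.0, 115 and 88.3 in ste12, 19.5, 16.8 and 27.3 in spt8, 36.9, 45.7 and 45.7 in rim101-531, 55.2, 61.1 and 55.1 in ras2, and 59.2, 76.7 and 69.1 in rtg3. The dig1 libraries were lowest, with spt8 next and ste12 highest. DSE4 was 4.29-fold lower (log2 fold change -2.10 ± 0.16, adjusted p = 3.11e-08) and passed against each mutant (adjusted p = 0.0332). EGT2, a wall protein of cell separation, had 22.9, 29.9 and 21.7 CPM in dig1, against 32.1 to 69.5 CPM (median 56.6) in the 15 hypofilamentous libraries (log2 fold change -1.06 ± 0.14, adjusted p = 1.34e-05). It did not overlap, but against each of the 5 it did not pass (adjusted p = 0.0888). Of 12 cyclins 4 rose and 2 fell, with a median of -0.08. PCL1, a G1 cyclin of the Pho85 kinase, rose (log2 fold change 1.01 ± 0.08, adjusted p = 8.57e-08). CLB2, a mitotic cyclin, and PCL9, an early G1 cyclin, fell (-0.56 and -0.59, adjusted p = 0.00761 and 0.00771). Of 8 core histones 0 rose and 2 fell, HHT1 and HHF1, both at under 0.3 in size and both lost without dig1 replicate 2 or replicate 3.

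The largest fall after that of DIG1 itself was of TIR2 (YOR010C, chromosome XV, 346195 to 346950), a mannoprotein of anaerobic and cold growth. It had 76.7, 69.3 and 76.5 CPM in dig1, against 180.2, 149.6 and 139.6 in ste12, 209, 204 and 207 in spt8, 630.01, 674 and 661 in rim101-531, 143, 239 and 208 in ras2, and 4812, 5918 and 5057 in rtg3. The dig1 libraries were lowest, and the rtg3 libraries stood far above every other group. The arithmetic mean of the 5 group means was 1295 CPM, against a mean of 74.1 CPM in dig1, while the fold below is against the geometric mean. TIR2 was 6.28-fold lower (log2 fold change -2.65 ± 0.14, adjusted p = 3.64e-10), with log2 fold changes of -1.08 against ste12, -1.48 against spt8, -1.41 against ras2, -3.14 against rim101-531 and -6.15 against rtg3. The related list of TIR and DAN genes was mixed, with 2 of 7 higher and 2 lower. TIR1, for which rtg3 was the low group, had 1495 ± 129 CPM in dig1 and 28.5 ± 1.76 in rtg3, and its positive change against the mean turned negative without rtg3. Of 5 tested seripauperins, wall genes so alike that their counts are uncertain, 2 rose and 0 fell. PAU17 had 81.8, 66.1 and 78.5 CPM in dig1, against 2.74 to 50.6 CPM (median 15.2) in the 15 hypofilamentous libraries (log2 fold change 2.62 ± 0.10, adjusted p = 5.94e-12). PAU5 had 339, 347 and 328 CPM in dig1, against 73.1 to 211 CPM (median 156) in the 15 hypofilamentous libraries (log2 fold change 1.23 ± 0.11, adjusted p = 1.35e-07). MRH1 (YDR033W, chromosome IV, 508147 to 509109), a plasma membrane protein related to Hsp30, had 187, 143 and 166 CPM in dig1, against 536, 631 and 479 in ste12, 391.8, 307 and 339.6 in spt8, 639, 505 and 563 in rim101-531, 371, 344 and 377 in ras2, and 487, 597 and 541 in rtg3. It was 2.80-fold lower without overlap (log2 fold change -1.49 ± 0.12, adjusted p = 4.52e-08) and passed against each mutant (adjusted p = 0.000115). Its relatives differed: YRO2 fell (log2 fold change -0.95 ± 0.23, adjusted p = 0.00745) with overlap in spt8, a call lost without dig1 replicate 2, and HSP30 was at 0.29 and did not pass (adjusted p = 0.187).

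**Figure D4:**
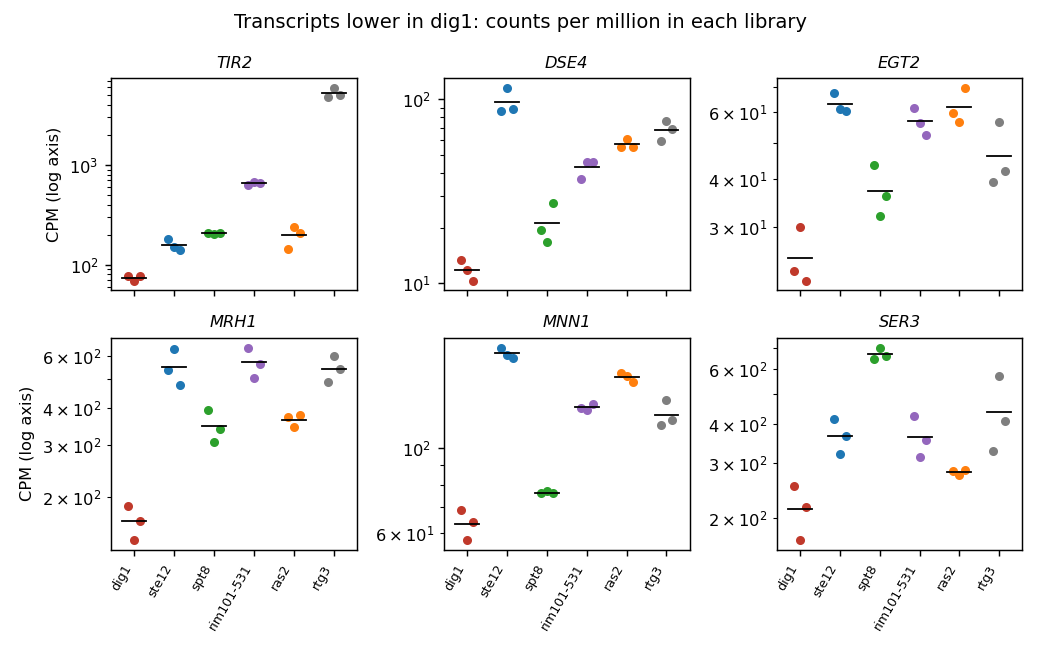
CPM on a log axis in each of the 18 libraries for 6 transcripts lower in dig1; points are libraries, bars are group means, and dig1 is leftmost. The 3 dig1 points lie below the 15 others in each panel. The nearest of the others is in spt8 for DSE4, EGT2, MRH1 and MNN1, and in ste12 for TIR2.

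The other falls of the 14 that the naming rule took were small. MNN1, a Golgi mannosyltransferase, had 68.8, 57.4 and 64.1 CPM in dig1, against 76.0 to 183 CPM (median 130.1) in the 15 hypofilamentous libraries (log2 fold change -0.99 ± 0.07, adjusted p = 2.52e-08). SER3, the first enzyme of serine synthesis, had 253, 169.9 and 217 CPM in dig1, against 275 to 703 CPM (median 365) in the 15 hypofilamentous libraries (log2 fold change -0.93 ± 0.15, adjusted p = 0.000176). ECM3, of unknown role, had 90.7, 69.6 and 84.7 CPM in dig1, against 108 to 168 CPM (median 134) in the 15 hypofilamentous libraries (log2 fold change -0.71 ± 0.09, adjusted p = 1.45e-05). It was the only one of these that also passed against each mutant (adjusted p = 0.017). YSP2, a sterol transfer protein, VPS72, a subunit of the SWR1 chromatin remodeller, BDH2, a dehydrogenase, GLD1, SLX8, a ubiquitin ligase for sumoylated proteins, and STE13, a peptidase that matures alpha factor, had log2 fold changes of -0.77, -0.63, -0.62, -0.60, -0.59 and -0.57. In all 14, the dig1 libraries lay below the 15 others, a condition of the rule.

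Genes of nutrient uptake gave some of the largest rises, and several of them varied among the dig1 libraries. Zinc genes under Zap1, the factor of zinc deficiency, rose in 8 of 13 cases and fell in 2, with a median of 0.42. ZPS1 (YOL154W, chromosome XV, 34658 to 35407), a surface protein of zinc deficiency, had 3225, 1085 and 2416 CPM in dig1, against 61.6, 26.7 and 39.8 in ste12, 27.5, 19.6 and 21.8 in spt8, 40.1, 198 and 130.1 in rim101-531, 10.7, 18.1 and 18.4 in ras2, and 11.4, 10.8 and 16.2 in rtg3. The dig1 libraries spanned nearly 3-fold among themselves yet all lay above the others (log2 fold change 6.22 ± 0.28, adjusted p = 3.14e-11). ZRT1 (YGL255W, chromosome VII, 20978 to 22108), the high-affinity zinc transporter, had 3130.4, 1496 and 2499.6 CPM in dig1, against 382, 721 and 551 in ste12, 94.2, 61.8 and 73.9 in spt8, 92.0, 438 and 267 in rim101-531, 32.5, 45.3 and 45.9 in ras2, and 39.8, 36.3 and 33.4 in rtg3. Here too dig1 was highest, with ste12 next (log2 fold change 4.42 ± 0.24, adjusted p = 4.05e-10). ADH4, an alcohol dehydrogenase of zinc deficiency, had 295, 115 and 237 CPM in dig1, against 48.3 to 80.0 CPM (median 64.5) in the 15 hypofilamentous libraries (log2 fold change 1.78 ± 0.15, adjusted p = 1.41e-07). ZAP1 itself rose (1.20, adjusted p = 0.000168), and ZRG8 and IZH2 fell (-0.68 and -0.56, adjusted p = 0.00373 and 0.00113). In the low-zinc genes ZPS1, ZRT1 and ADH4, dig1 replicate 2 was the lowest of the 3.

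Of 23 iron uptake genes 3 rose and 5 fell, with a median of -0.15, beside 12.8% and 7.67% over all tested genes. The rises were thus near the share over all genes. The largest rise of these was of FRE2 (YKL220C, chromosome XI, 9091 to 11226), a ferric reductase, which had 124, 185 and 152 CPM in dig1, against 11.1 to 54.2 CPM (median 25.5) in the 15 hypofilamentous libraries (log2 fold change 2.56 ± 0.11, adjusted p = 2.85e-11). The siderophore transporters ARN1 and ARN2 fell (-0.77 and -0.66, adjusted p = 0.0144 and 0.00938), ARN2 not without rtg3 in the mean or without dig1 replicate 3. Phosphate genes rose in 8 of 15 cases and fell in 1, with a median of 0.31, but against the single mutants the medians were -0.15 for ste12, 0.15 for spt8, -0.06 for rim101-531, 0.65 for ras2 and 0.80 for rtg3. PHO89, a phosphate symporter, had 207, 315 and 243 CPM in dig1, against 348, 154 and 227 in ste12, 168, 70.4 and 112 in spt8, 113, 93.5 and 99.2 in rim101-531, 14.02, 39.2 and 33.0 in ras2, and 2.12, 2.77 and 1.83 in rtg3. Its dig1 libraries overlapped with ste12, and the change (log2 fold change 2.498 ± 0.23, adjusted p = 3.91e-07) came with low values in ras2 and rtg3. GIT1, a permease for glycerophosphoinositol on chromosome III, had 254, 224 and 227 CPM in dig1, against 41.5 to 176 CPM (median 102) in the 15 hypofilamentous libraries (log2 fold change 1.52 ± 0.11, adjusted p = 1.21e-08).

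Nitrogen catabolite genes rose in 11 of 23 cases and fell in 1, with a median of 0.44. Off chromosomes IX and III they rose in 7 of 17 and fell in 1, with a median of 0.27, since 5 members, the DAL genes of allantoin use, lie on chromosome IX and 4 of these rose. MEP2, the ammonium permease needed for filamentation under nitrogen limitation, had 258, 396 and 283 CPM in dig1, against 67.1, 86.4 and 63.3 in ste12, 118, 137 and 117 in spt8, 92.0, 92.5 and 79.4 in rim101-531, 46.8, 63.4 and 57.6 in ras2, and 194, 159 and 174 in rtg3 (log2 fold change 1.72 ± 0.11, adjusted p = 3.05e-09). It was above all 15 libraries, with rtg3 the nearest group, and passed against each (adjusted p = 0.00433). PUT4, the proline permease, had 1330.4, 935 and 1141 CPM in dig1, against 131 to 791 CPM (median 478) in the 15 hypofilamentous libraries (log2 fold change 1.60 ± 0.08, adjusted p = 2.04e-10). GAP1, the general amino acid permease, had 156, 176 and 148 CPM in dig1, against 65.9 to 108 CPM (median 80.9) in the 15 hypofilamentous libraries (log2 fold change 0.93 ± 0.11, adjusted p = 4.32e-06). CAR1, arginase, fell (-0.43, adjusted p = 0.02). Amino acid genes under Gcn4 rose in 8 of 35 cases and fell in 1 (median 0.09), and off chromosomes IX and III in 4 of 30 with 1 fall. LYS12 of lysine synthesis, on chromosome IX, had 523, 633 and 562.5 CPM in dig1, against 119 to 283 CPM (median 243) in the 15 hypofilamentous libraries (log2 fold change 1.37 ± 0.08, adjusted p = 4.34e-10). Sulfate and methionine genes rose in 7 of 22 and fell in 1 (median 0.21), among them SAM2, an S-adenosylmethionine synthetase (log2 fold change 0.94 ± 0.18, adjusted p = 0.00088).

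SUC2 (YIL162W, chromosome IX, 37385 to 38983), the invertase that splits sucrose, was one of the largest rises of a carbon gene. It had 2471, 3743 and 2908 CPM in dig1, against 311, 743 and 468 in ste12, 317, 383 and 331 in spt8, 517, 532 and 489 in rim101-531, 107, 111 and 106 in ras2, and 85.5, 84.4 and 78.0 in rtg3. The dig1 libraries lay above all others and the ras2 and rtg3 libraries were lowest (log2 fold change 3.66 ± 0.14, adjusted p = 2.52e-12), on chromosome IX. FDH1, formate dehydrogenase, had 479, 234 and 369 CPM in dig1, against 58.8, 56.3 and 55.0 in ste12, 26.8, 5.36 and 13.1 in spt8, 92.4, 75.7 and 78.7 in rim101-531, 8.35, 9.06 and 9.43 in ras2, and 150.3, 93.9 and 124 in rtg3. The change was a rise (log2 fold change 3.25 ± 0.20, adjusted p = 1.71e-09). Its nearest group was rtg3, at 1.55, and dig1 replicate 2 was the lowest of the dig1 libraries. Of 10 genes of the galactose pathway, the carbon source of the medium, 0 rose and 1 fell (median -0.23), the fall being of GCY1, whose call was lost without dig1 replicate 2 or 3 or without rtg3. GAL10 stood at 1966 ± 722 CPM in dig1, against 1246 to 3729 CPM in the 15 hypofilamentous libraries. Of 14 hexose transporter and sensor genes 1 rose and 1 fell, and MTH1, a regulator of glucose sensing, was the fall (log2 fold change -0.50 ± 0.09, adjusted p = 0.000394).

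For much of carbon metabolism, the mean of the 5 covered values on both sides of dig1. Glycolysis and ethanol genes rose in 7 of 21 cases and fell in 0 (median 0.24), with medians of -0.40 against ste12, 0.71 against spt8, 0.15 against rim101-531, -0.07 against ras2 and 0.45 against rtg3. PFK1, a phosphofructokinase subunit, was above all 15 libraries (log2 fold change 0.33 ± 0.06, adjusted p = 0.000759). PDC1, pyruvate decarboxylase, had 12592 ± 1412 CPM in dig1 and 12462 ± 301 CPM in ras2 (SD, n = 3 each). Genes of gluconeogenesis, the glyoxylate cycle and acetyl transfer rose in 8 of 16 and fell in 2 (median 0.24), and 0 of them passed against each mutant in edgeR, in DESeq2 or at an unadjusted p under 0.05. ADH2, the ethanol-consuming alcohol dehydrogenase, had 12668, 8210.4 and 10743 CPM in dig1, against 4826, 4989 and 5192 in ste12, 6558, 4360.5 and 5535 in spt8, 10558, 7490.3 and 8953 in rim101-531, 2100.00, 2296 and 2246 in ras2, and 1207, 1211 and 1135 in rtg3. It was high in dig1 and in rim101-531 and low in ras2 and rtg3 (log2 fold change 1.53 ± 0.12, adjusted p = 3.1e-08). YAT1, a carnitine acetyltransferase, ALD4, a mitochondrial aldehyde dehydrogenase, and ADY2, an acetate transporter on chromosome III, rose against the mean (1.54, 1.18 and 2.15, adjusted p = 1e-10, 1.05e-08 and 5.62e-10), each with at least 1 hypofilamentous group that overlapped with dig1. MLS1 of the glyoxylate cycle and SFC1, a mitochondrial succinate carrier, fell (-0.62 and -0.68, adjusted p = 0.00172 and 0.00384).

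Of 7 genes of the retrograde pathway 2 rose and 0 fell, with a median of 0.05. CIT2, peroxisomal citrate synthase and the classic target of Rtg3, had 1779.5, 1611 and 1682 CPM in dig1, against 1340.1, 1279 and 1303 in ste12, 1302, 1277 and 1250.05 in spt8, 1888, 1577 and 1754 in rim101-531, 517, 549.9 and 509 in ras2, and 58.2, 58.2 and 67.9 in rtg3. The rtg3 libraries were far below every other group and ras2 was next, while dig1 and rim101-531 overlapped. Its rise against the mean (log2 fold change 1.44 ± 0.07, adjusted p = 4.86e-11) stood beside a change of -0.04 against rim101-531, and CIT2 lies on chromosome III. DLD3, a lactate dehydrogenase, rose too (log2 fold change 0.82 ± 0.15, adjusted p = 0.000862), and did not pass without rtg3 in the mean. Of 17 genes of peroxisomal fatty acid oxidation 5 rose and 1 fell (median 0.27), of 11 of the tricarboxylic acid cycle 3 rose and 0 fell (median 0.23), and of 35 of the respiratory chain 6 rose and 0 fell (median 0.16), with respiratory medians of 0.64 against spt8 and -0.20 against rim101-531.

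**Figure D5:**
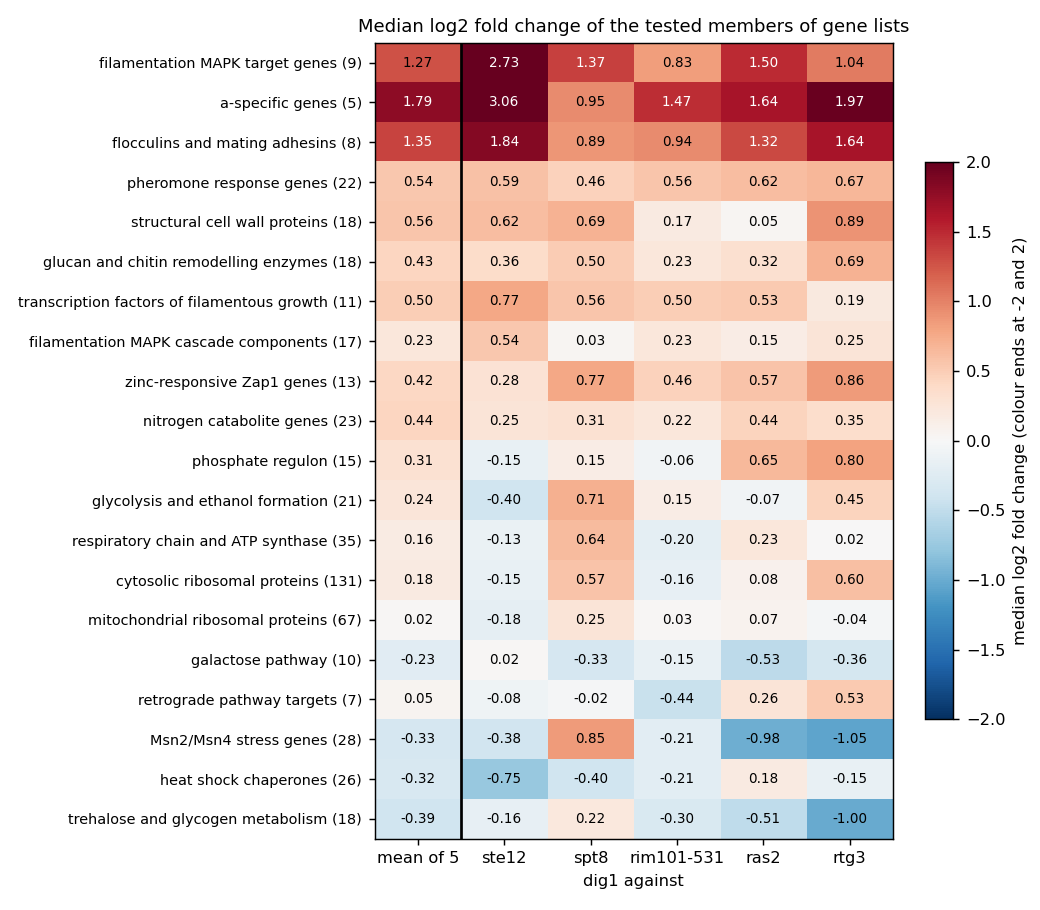
Median log2 fold change of the tested members of 20 gene lists (rows, with the number tested), for dig1 against the mean of the 5 mutants (left column) and against each mutant (other columns). The lists of filamentation MAPK targets, a-specific genes and adhesins are positive in all columns, at 0.83 or more. Cascade components and filamentation transcription factors are positive too, but as low as 0.03 (against spt8) and 0.19 (against rtg3). Stress, glycolysis and respiratory lists change sign from mutant to mutant. Colours end at -2 and 2.

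Stress genes were lower in dig1 than the mean in part. Of 26 heat shock chaperones 0 rose and 11 fell (median -0.32), of 28 stress genes under Msn2 and Msn4 2 rose and 5 fell (median -0.33), and of 18 genes of trehalose and glycogen 0 rose and 3 fell (median -0.39). In edgeR and in DESeq2 0 members of these 3 lists passed against each mutant, and 2 did at an unadjusted p under 0.05, 1 of the stress list and 1 of trehalose and glycogen. The Msn2 and Msn4 list had medians of -0.38 against ste12, 0.85 against spt8, -0.21 against rim101-531, -0.98 against ras2 and -1.05 against rtg3. SPI1, a wall protein of stationary phase, had 725, 683 and 652 CPM in dig1, against 1963, 2275 and 2181 in ste12, 541, 613 and 562.5 in spt8, 1124, 1518 and 1381 in rim101-531, 679, 735 and 725 in ras2, and 1865, 1864 and 1779 in rtg3. The dig1 libraries lay between those of spt8 and most of those of ras2, and below the 3 other groups (log2 fold change -0.76 ± 0.09, adjusted p = 6.68e-06). YGP1, a secreted glycoprotein of starvation, had 1992, 1063 and 1596 CPM in dig1, against 4596, 3416 and 3547 in ste12, 2835, 1535 and 2259.6 in spt8, 4536, 4230.1 and 4092 in rim101-531, 4806, 3391 and 4032 in ras2, and 4943, 5458 and 5171 in rtg3. It fell (log2 fold change -1.29 ± 0.19, adjusted p = 7.72e-05), with the lowest value in replicate 2 in dig1, ste12, spt8 and ras2. APJ1, a chaperone of the Hsp40 family, fell against the mean (log2 fold change -0.67 ± 0.11, adjusted p = 0.000196) but stood at 88.5 ± 13.4 CPM in dig1, above 72.9 ± 4.001 CPM in ras2. CPR6, a cyclophilin that works with Hsp90, and SSE2, an Hsp110 chaperone, had log2 fold changes of -0.48 and -0.64 (adjusted p = 0.00129 and 0.00328), SSE2 not without rtg3 in the mean. GSY1, a glycogen synthase, fell (log2 fold change -1.17 ± 0.29, adjusted p = 0.00771), with 127, 37.2 and 109 CPM in dig1.

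Of 131 cytosolic ribosomal proteins 10 rose and 0 fell (median 0.18), beside 12.8% and 7.67% over all tested genes. Rises were thus no more common in this list than over all genes. All 5 that lie on chromosome IX rose, with a median of 1.05, and off chromosomes IX and III 4 of 125 rose, with a median of 0.17. RPL40A, on chromosome IX, had 1602, 2646 and 1967 CPM in dig1, against 631 to 1384 CPM (median 1009.9) in the 15 hypofilamentous libraries (log2 fold change 1.13 ± 0.11, adjusted p = 7.58e-07), while its dig1 libraries varied. These proteins come from duplicated genes with nearly the same sequence, so their counts are uncertain. Of 67 mitochondrial ribosomal proteins 3 rose and 0 fell, RSM25 on chromosome IX by the most (log2 fold change 0.81 ± 0.11, adjusted p = 2.13e-05). Of 50 ribosome biogenesis genes 0 passed in edgeR or in DESeq2 and 2 were higher at an unadjusted p under 0.05, with a median of 0.20. Of 24 genes of ergosterol synthesis 7 rose and 0 fell (median 0.18), ERG1, squalene epoxidase, by 0.60 (adjusted p = 0.00054). Pyrimidine genes gave 1 rise and 2 falls of 12, and riboflavin genes 0 rises and 1 fall of 8. The 7 genes listed as under direct or indirect control of Rim101 gave 4 rises and 1 fall (median 0.51). Of these 7, 0 passed against each mutant in edgeR, in DESeq2 or at an unadjusted p under 0.05. Their median ran from -0.42 against rtg3 to 0.47 against ste12. The calls of CWP1 and ENA1 were lost without rtg3 in the mean, and that of NRG1 without spt8 or without ste12. RIM8, an adaptor of the pH pathway, rose (log2 fold change 1.11 ± 0.11, adjusted p = 7.12e-07) and stood at 168 ± 33.0 CPM in dig1 and 225 ± 14.1 CPM in rtg3. Of 24 meiosis genes 5 rose and 1 fell, beside the same shares over all tested genes of 12.8% and 7.67%. NDJ1, a telomere protein of meiosis, had 65.0, 55.0 and 62.0 CPM in dig1, against 1.38, 2.15 and 0.462 in ste12, 47.9, 49.6 and 48.0 in spt8, 28.8, 30.4 and 34.0 in rim101-531, 12.5, 16.9 and 15.6 in ras2, and 34.3, 30.8 and 29.0 in rtg3. Levels were highest in dig1, with spt8 next and ste12 near 0 (log2 fold change 1.94 ± 0.11, adjusted p = 3.97e-10). Of 8 genes used in strain construction HIS3 rose, with 87.0, 51.2 and 67.5 CPM in dig1, against 12.04 to 49.2 CPM (median 23.4) in the 15 hypofilamentous libraries (log2 fold change 1.51 ± 0.13, adjusted p = 1.46e-07), while URA3 fell (log2 fold change -0.88 ± 0.14, adjusted p = 0.000176). URA3 was at 17.02 ± 1.36 CPM in dig1, against 86.7 ± 4.77 CPM in ste12, 106 ± 3.14 CPM in ras2 and 15.8 ± 4.27 CPM in rtg3. No source read here names the markers used to make the strains, and their part was not tested. The 8 genes that mitochondrial DNA encodes had too few counts to be tested.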

How the data were processed

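RNA was taken from biofilms of 7 Sigma1278B strains, 3 libraries each, and 18 of the 21 libraries were used in the comparison, the 3 wild-type libraries entering chromosome medians only. Poly(A) RNA was made into libraries with a TruSeq kit, per the labels' protocols. The submitters' processing notes name bcl2fastq, TopHat2 2.0.19, HTSeq 0.6.1 and the build R64; settings, strand included, were not stated. The authors deposited raw counts per feature, whole numbers that were not normalized. Each table held 7126 features, of which 6048 matched RefSeq locus tags and 1078 did not. Lines for reads assigned to no gene, 40.1% to 47.8% of the records, stayed out of library sizes and tests.

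Counts were fitted here with edgeR 4.0.16 (quasi-likelihood, TMM scaling, genes kept by filterByExpr) in R 4.3.3, with a coefficient per strain and the contrast of dig1 minus the mean of the 5 others. CPM are TMM-scaled. P-values were Benjamini-Hochberg adjusted over all 5773 tested genes, with a threshold of 0.05. The test against each of the 5 mutants took the largest of the 5 p-values where all signs were alike. The code was tested on simulated data.

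Named genes were the 6 mutated genes, FLO11, the 14 largest rises and 14 largest falls with a standard name, a call, no overlap between dig1 and the other 15 libraries and a mean of at least 50 counts on the higher side, and up to 4 members of each list by smallest p. Other members are named for their list's counts. 1 list of genes is not reported here. The members and lists were chosen with earlier results of these data known. Replicate libraries of a group differed by more than counting noise (chi-square per degree of freedom 1.93 to 56.9), so none was counted as a copy.

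Alternatives were DESeq2 1.42.0, DESeq2 size factors in edgeR, other filters on low counts, all 21 libraries in the fit, the 15 libraries as one group, the mean of 4 mutants, an arithmetic mean, a replicate block, each library left out and, added after the data were seen, genes of chromosomes IX and III left out.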

Additional observations from a re-analysis of the deposited data

Results flagged for a closer look

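Alignments to more than 1 place, which the report's tests do not use, made up a larger share of the records in dig1 than in any of the 15 hypofilamentous libraries. The shares were 27.34%, 27.71% and 28.61% in dig1, against 18.56% to 24.99% (median 21.03%) in the 15. The lowest dig1 library, at 27.34%, thus stood above the highest of the others. These records were counted to no gene, and their part in the changes of repeated genes such as the FLO and PAU genes was not tested.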

How the results depend on the processing

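Of the 146 named genes that passed, 62 kept their call under every alternative, and 81 lost it with the same sign with the 15 libraries as one group, a fit in which differences among the 5 mutants enter the spread. That fit called 328 genes, 292 higher and 36 lower, so that 89% of its calls were higher, against 62.6% in the reported fit. The other normalizations, filters and tools, and each mean of 4 mutants, kept all counts within 1.5 times: DESeq2 called 1244 genes, DESeq2 size factors 1191, no filter 1202, a mean count of at least 50 1122, all 21 libraries 1226, and means of 4 mutants 1006 (without rtg3) to 1315 (without ras2). In new fits without the genes of chromosome IX, which rescale the libraries, 114 genes changed by at least 2-fold and 61 passed against each mutant, and without those of chromosomes IX and III these were 111 and 55 (859 called in all, 524 higher and 335 lower). The counts off both chromosomes in the report are a subset of the reported fit instead. With 1 library left out, 824 (without dig1 replicate 3) to 1265 (without spt8 replicate 2) genes were called, 595 to 744 higher and 229 to 525 lower, 172 to 201 by at least 2-fold, 122 to 150 against each mutant and 2917 to 3617 among the 5. With the arithmetic mean of the 5 group means of CPM, the fold changes of 37 named genes shifted in size, and 135 did not. Signs turned for few genes. The SPT8 log2 fold change was -0.067 without spt8, the RAS2 log2 fold change -0.12 without ras2 and the RTG3 log2 fold change -0.21 without rtg3, each through the mutant that lacks it. The TIR1 log2 fold change was -0.12 with one group, -0.40 without rtg3 and -0.12 with the arithmetic mean, and the CWP1 log2 fold change was -0.39 with one group and -0.38 with the arithmetic mean, where rtg3 held the low values. With replicate number as a block, 1391 genes were called (824 higher, 567 lower), 169 against each mutant, 3784 among the 5 and 175 by at least 2-fold. The labels name nothing that a number shares, and deviations of the 45 same-numbered pairs did not all correlate above 0.1 (median 0.0319, from -0.421 to 0.688), so the libraries were not taken as pairs. Some structure followed the numbers all the same: 20 of these 45 pairs were over 0.1, against 22 of 90 pairs of unlike number, 10 of 18 libraries lay closest to one of their own number, and replicates 1 and 2 differed most in every group. Depth of 2388813 to 3987529 counts leaves genes of few counts, such as MFA1, below what a test can resolve.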

Other observations

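Of the 58 genes off chromosomes IX and III that were higher in dig1 than in each of the 5 mutants, 27 belonged to a list described above and 31 to none. A few of the 31 are given here, chosen after their values were seen. GFA1, the first enzyme on the way to chitin precursors, had 556, 513 and 483 CPM in dig1, against 94.5 to 372 CPM (median 215) in the 15 hypofilamentous libraries (log2 fold change 1.498 ± 0.10, adjusted p = 3.18e-09). CHS7, which lets the chitin synthase Chs3 leave the endoplasmic reticulum, had 269.8, 292 and 285 CPM in dig1, against 63.6 to 201 CPM (median 151) in the 15 hypofilamentous libraries (log2 fold change 1.06 ± 0.06, adjusted p = 8.21e-10). RAX2, a landmark protein of bipolar budding, had 139.7, 204 and 161 CPM in dig1, against 26.8 to 93.5 CPM (median 67.3) in the 15 hypofilamentous libraries (log2 fold change 1.44 ± 0.11, adjusted p = 3.76e-08). In these 3 genes every dig1 library lay above the 15 others.

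Lipid genes were among them as well. INO1, inositol phosphate synthase, had 3025, 2657 and 2803 CPM in dig1, against 466, 521 and 475 in ste12, 412, 503 and 435 in spt8, 719, 1113 and 930.5 in rim101-531, 526, 685 and 647 in ras2, and 1235, 724 and 1075 in rtg3, with dig1 above all 15 libraries (log2 fold change 2.10 ± 0.12, adjusted p = 6.45e-10). PAH1, a phosphatidate phosphatase, had 168, 145 and 151 CPM in dig1, against 50.7 to 111 CPM (median 74.4) in the 15 hypofilamentous libraries (log2 fold change 1.05 ± 0.09, adjusted p = 1.01e-07), and ACC1, acetyl-CoA carboxylase, had 3275, 3308 and 3292 CPM in dig1, against 1612 to 2366 CPM (median 1787) in the 15 hypofilamentous libraries (log2 fold change 0.84 ± 0.08, adjusted p = 2.66e-07).

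Noncoding RNAs beside a pair of named genes were read too, likewise chosen after the data were seen. ICR1, which is transcribed across the FLO11 promoter (chromosome IX, 393884 to 397082, R64), had 32.5, 20.5 and 22.0 CPM in dig1, against 7.82 to 15.9 CPM (median 13.1) in the 15 hypofilamentous libraries (log2 fold change 1.01 ± 0.19, adjusted p = 0.000825). It was thus higher in dig1, as was FLO11, although the change against each mutant did not pass (adjusted p = 0.117) and the median of chromosome IX was 0.84. SRG1, which is transcribed across the promoter of SER3 (chromosome V, 322212 to 322762), had 217, 197 and 214 CPM in dig1, against 132 to 449 CPM (median 312) in the 15 hypofilamentous libraries, with the dig1 libraries within that range (log2 fold change -0.44 ± 0.08, adjusted p = 0.000351). Whether counting used strand is not stated, so reads of these RNAs and of overlapping transcripts cannot be told apart.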
